A study of Sus scrofa with 55 samples.

Results

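The theca and stroma matrix genes followed here are 7 genes of the connective tissue that surrounds ovarian follicles: COL1A1, COL1A2, COL3A1, DCN, LUM, ACTA2 and FBLN1. They were taken by symbol from the table of read counts, without use of their values, and all 7 were found among its 25880 gene rows, of which 14857 carry a symbol. The counts come from 55 single pig oocytes (Sus scrofa) of 5 antral follicle stages, with 11, 12, 11, 11 and 10 oocytes from the first stage to the last. All oocytes were wild type (WT) and came from the ovaries of 4 pubertal Landrace and Yorkshire gilts aged 208 to 210 days. Every gilt had been given PMSG (pregnant mare serum gonadotropin, which drives antral follicles to grow) at 5 IU, 48 h before collection, so no stage is untreated. Gilt 201 gave 14 oocytes, gilt 205 gave 9, gilt 801 gave 12 with none at stage 5, and gilt 803 gave 20. The cytoplasm of each oocyte was separated from its genomic DNA, and its RNA was copied with Smart-seq2, a full-length cDNA protocol, with 16 PCR cycles. The DNA methylation, somatic cells and maturation cultures of the study's design were not analysed here.

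An antral follicle holds an oocyte with its cumulus cells, a wall of granulosa cells, a basement membrane and, outside it, the theca. The theca contains steroid-making cells, blood vessels, fibroblasts and smooth muscle-like cells, and merges with the ovarian stroma. Fibroblasts and theca cells secrete fibrillar collagens, and small proteoglycans and fibulins bind and organise that matrix. COL1A1 and COL1A2 encode the α1 and α2 chains of type I collagen, and COL3A1 the chain of type III collagen. DCN and LUM encode decorin and lumican, small leucine-rich proteoglycans that bind collagen fibrils. FBLN1 encodes fibulin-1, a secreted glycoprotein of elastic fibres and basement membranes. ACTA2 encodes smooth muscle α-actin, the 1 intracellular protein of the group. The oocyte is separated from all these cells by its zona pellucida, and its cumulus cells are its direct neighbours.

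Total counts per library ran from 151104 to 38282850 with a median of 12139540, so 3 counts, taken as the limit that a count of 0 allows, corresponded to 0.0784 to 19.9 CPM (counts scaled to a common library total). As a check of the oocyte label, the zona pellucida gene ZP3 had counts in all 55 libraries, with a median of 4951 CPM but a lowest value of 2.14 CPM. The growth factor gene GDF9 had a median of 832 CPM and a lowest value of 0.509 CPM, so the oocyte genes were low in some libraries. In 12 libraries, 11 of gilt 803 and 1 of gilt 801, markers of granulosa and cumulus cells held more counts than oocyte genes. These are called granulosa-rich below. The mitochondrially encoded share of counts ranged from 2.104% to 91.8%. A set of 3 libraries of gilt 801 (oocyte 4 of stage 2, oocytes 2 and 3 of stage 4) resembled each other more than any other pair, with Pearson r of 0.968 to 0.982 across 11726 genes against a median of 0.462 over all pairs. Their counts differed by more than counting error, and they were kept as separate libraries. A library holds an oocyte and whatever other RNA came with it, so more cells of a type and more RNA per cell cannot be told apart.

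A library was said to carry a gene at 3 or more counts and at least 1 CPM. COL1A2 (ENSSSCG00000015326) was carried by 35 of 55 libraries, FBLN1 (ENSSSCG00000000010) by 33, COL1A1 (ENSSSCG00000036135) by 26, DCN (ENSSSCG00000000915) by 22, ACTA2 (ENSSSCG00000010447) by 22, COL3A1 (ENSSSCG00000016034) by 12 and LUM (ENSSSCG00000000916) by 1. Over the 23035 genes with any count, the median gene was carried by 10 libraries (quartiles 1 and 30), so the carriage of COL1A2 and FBLN1 lay above the upper quartile and that of LUM at the lower one. Most libraries carried a few members: 3 libraries carried none, 10 carried 1, 12 carried 2, 15 carried 3, and 15 carried at least 4. The single library with all 7 was oocyte 1 of gilt 201 at stage 1. Among the 15 libraries with at least 4 members, 6 were of stage 1, 1 of stage 2, 4 of stage 3, 2 of stage 4 and 2 of stage 5, and each of the 4 gilts gave at least 2.

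**Figure D1:**
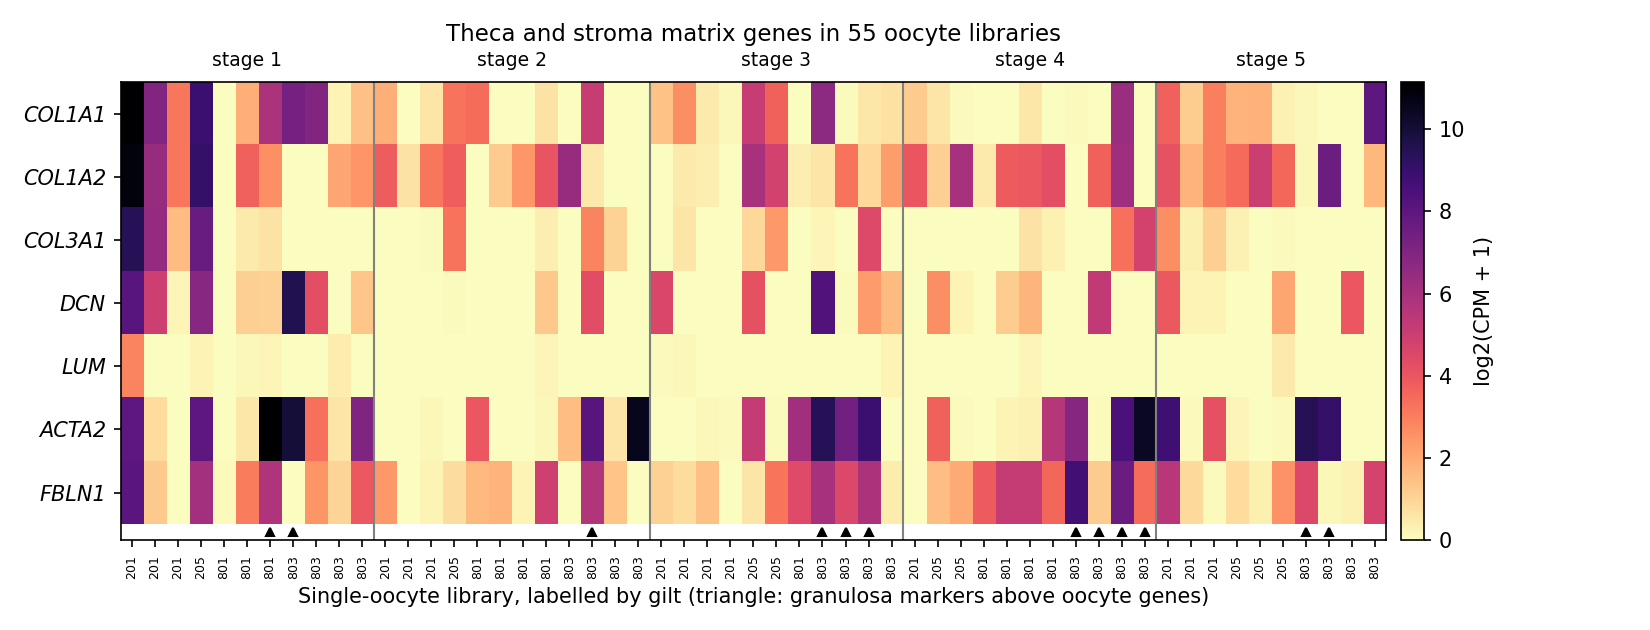
Level of each of the 7 genes, as log2(CPM + 1), in each of the 55 libraries, ordered by stage and then gilt, with triangles under the 12 granulosa-rich libraries. Oocyte 1 of gilt 201 at stage 1, the leftmost column, is dark for every gene but LUM, and ACTA2 is dark above 11 of the 12 triangles.

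Most of the collagen signal came from 2 libraries. Oocyte 1 of gilt 201 at stage 1 held COL1A1 at 2267 CPM (95% Wilson interval 2239 to 2297), COL1A2 at 1866 CPM (1840 to 1893) and COL3A1 at 691 CPM (675 to 707). Oocyte 1 of gilt 205 at stage 1 held COL1A1 at 483 CPM (473 to 493), COL1A2 at 534 CPM (523 to 545) and COL3A1 at 198 CPM (192 to 205). The intervals cover counting error only, since reads copied by PCR and carrying no molecular identifier do not each stand for a molecule. The same 2 libraries contained 72.7% of all COL1A1 CPM summed over the 55 libraries, 74.3% of COL1A2 and 83.5% of COL3A1. For comparison, the 2 highest libraries of a gene held a median of 34.9% over 12639 genes with a mean of at least 1 CPM (quartiles 25.9% and 50.2%). Oocyte 2 of gilt 201 at stage 1 came next in COL3A1 at 87.7 CPM, with COL1A1 at 121 CPM and COL1A2 at 81.5 CPM.

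Outside those libraries the collagen chains were often found singly. Oocyte 4 of gilt 803 at stage 5 held COL1A1 at 248 CPM, the third-highest value of the gene, with COL1A2 at 2.21 CPM and no count of COL3A1. Oocyte 2 of gilt 803 at stage 5 held COL1A2 at 186 CPM with no count of COL1A1 or COL3A1. COL1A1 and COL1A2 were both carried by 19 libraries, COL1A1 without COL1A2 by 7 and COL1A2 without COL1A1 by 16. COL3A1 was carried together with COL1A1 in 10 of its 12 libraries and together with COL1A2 in 9. Across the 55 libraries the log2(CPM + 1) of COL1A1 and COL1A2 had a Pearson r of 0.376 and a Spearman rho of 0.252. Without the 2 collagen-richest libraries, r was 0.094 and rho 0.163. These libraries share animals and differ in depth, so correlations over them are given as descriptions.

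A deposited table of length-scaled values holds COL1A1, COL1A2, COL3A1 and ACTA2 and was read for ratios between genes within a library. The ratio of COL1A2 to COL1A1 on that scale was 0.868 in oocyte 1 of gilt 201 at stage 1 and 1.55 in oocyte 1 of gilt 205. Over the 10 libraries with at least 50 counts of both chains, it ran from 0.781 to 2.40. Libraries with 1 chain alone could not enter this range: oocyte 4 of gilt 803 at stage 5 had 5390 counts of COL1A1 and 48 of COL1A2, and oocyte 2 of that gilt and stage had 1584 counts of COL1A2 and 0 of COL1A1. COL3A1 stood at 0.335 and 0.492 of COL1A1 in the 2 collagen-richest libraries. ACTA2 stood at 0.143 and 1.69 of COL1A1 there, but at 104 times COL1A1 in oocyte 3 of gilt 801 at stage 1 and 91.2 times in oocyte 1 of gilt 201 at stage 5. In raw counts these 4 ratios were 0.108, 0.503, 39.5 and 35.9. The length-scaled ratios thus did not differ from the count ratios by a fixed factor, and their size depends on the table used. The cause was not tested.

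Of the proteoglycans, DCN had a mean of 29.9 CPM over the libraries, and LUM had 0.145 CPM. DCN was at 277 CPM in oocyte 1 of gilt 201 and 111 CPM in oocyte 1 of gilt 205 at stage 1, but its highest values were in gilt 803, at 743 CPM in oocyte 1 of stage 1 and 318 CPM in oocyte 1 of stage 3. The first of these libraries is shallow (343284 counts in all), and neither carried COL1A2 or COL3A1. DCN had no count in 27 of 55 libraries. LUM had 90 counts in all libraries together, of which 64 fell in oocyte 1 of gilt 201 at stage 1 (6.22 CPM, 95% Wilson interval 4.87 to 7.94), and 44 libraries had none. DCN and LUM are next to each other in the RefSeq gene order of the Sscrofa11.1 assembly, but 21 of the 22 libraries that carried DCN did not carry LUM.

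FBLN1 was carried by nearly as many libraries as COL1A2. Its largest values were 427 CPM in oocyte 1 of gilt 803 at stage 4, 270 CPM in oocyte 1 of gilt 201 at stage 1 and 192 CPM in oocyte 3 of gilt 803 at stage 4. It had no count in 7 libraries. The 3 mutually similar libraries of gilt 801 held FBLN1 at 29.0 to 35.2 CPM and COL1A2 at 13.5 to 15.7 CPM, with COL1A1 at no more than 0.558 CPM. Those libraries were also among the 4 with the most genes detected after thinning every library to 1109755 counts, 13105 to 13602 genes against a median of 7504. Over the 52 libraries deep enough for that count, FBLN1 had a Spearman rho of 0.592 with genes detected, COL1A2 0.356, and COL1A1 0.156.

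ACTA2 had a wide range. It reached 2241 CPM in oocyte 3 of gilt 801 at stage 1, 1443 CPM in oocyte 4 of gilt 803 at stage 2 and 1317 CPM in oocyte 4 of gilt 803 at stage 4, was at least 100 CPM in 16 libraries and between 10 and 100 CPM in 6, and had a median of 0.475 CPM. The second of these libraries has 151104 counts in all, the fewest of any. COL1A2 was at 5.04, 0 and 0 CPM in those 3 libraries. The first also held COL1A1 at 56.8 CPM, and the last held COL3A1 at 26.0 CPM, the fourth-highest value of that gene. The 2 collagen-richest libraries held ACTA2 at 244 and 243 CPM.

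At stage 1 every member but FBLN1 had its highest mean CPM, LUM at only 0.622 CPM. Over the gilt sums (counts added over the oocytes of each gilt at a stage) COL1A1 stood at 329 ± 393 CPM at stage 1 (SD, n = 4 gilts). Some of these sums are a single library. Gilt 205 gave 1 oocyte at stage 1 and 1 at stage 2, gilt 801 gave 1 at stage 3 and gilt 201 gave 1 at stage 4. From stage 2 to stage 5 COL1A1 stood at 8.69 ± 9.93, 8.67 ± 10.0, 5.25 ± 9.33 and 42.8 ± 67.0 CPM (n = 3 at stage 5). The stage 1 sums were 813 CPM in gilt 201, 483 in gilt 205, 10.5 in gilt 801 and 8.34 in gilt 803, and the stage 5 sums were 6.38, 1.86 and 120 CPM in gilts 201, 205 and 803. The 2 stages overlapped, and the sum of gilt 803 was higher at stage 5 than at stage 1. A sum weights oocytes by their depth. In gilt 803 at stage 1, oocytes 1 and 2 held COL1A1 at 154 and 123 CPM but had only 343284 and 220085 counts in all. At stage 5, oocyte 4 of that gilt held 248 CPM and its other oocytes no more than 0.102 CPM. Over single oocytes COL1A1 ran from 0 through a median of 56.8 to 2267 CPM at stage 1 and from 0 through 1.82 to 248 CPM at stage 5.

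COL1A2 followed COL1A1 in its mean but not in its median. Its gilt sums averaged 301 ± 347, 8.78 ± 2.81, 11.97 ± 20.4, 19.7 ± 7.50 and 20.8 ± 14.4 CPM from stage 1 to stage 5. Over single oocytes the medians in the same order were 5.04, 2.82, 0.488, 13.5 and 8.45 CPM, so the stage with the highest mean did not have the highest median. The stage 1 sums of 662 CPM in gilt 201 and 534 in gilt 205 lay far above those of gilts 801 and 803, at 3.99 and 3.50 CPM. COL3A1 averaged 117 ± 138 CPM at stage 1 and 3.26 ± 4.03, 1.78 ± 2.12, 2.50 ± 4.79 and 0.738 ± 1.19 CPM at stages 2 to 5. Its stage 1 sums were 269 CPM in gilt 201, 198 in gilt 205, 0.195 in gilt 801 and 0 in gilt 803. In gilt 201 most of these counts came from the collagen-rich oocyte, and gilt 205 had no other oocyte at stage 1.

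DCN averaged 60.6 ± 56.1, 3.37 ± 6.32, 12.6 ± 16.3, 2.88 ± 3.19 and 2.39 ± 2.03 CPM from stage 1 to stage 5, with stage 1 sums of 106, 111, 0.487 and 25.1 CPM in gilts 201, 205, 801 and 803. FBLN1 had its highest mean at stage 4, 48.7 ± 77.6 CPM, after 43.5 ± 41.7, 12.4 ± 16.1 and 13.6 ± 13.1 CPM in the stages before it and with 10.9 ± 8.11 CPM in the last stage. The stage 4 mean rested on gilt 803 at 163 CPM, against 0 in gilt 201, 2.40 in gilt 205 and 29.0 in gilt 801. ACTA2 averaged 199 ± 148, 54.5 ± 106, 84.8 ± 118, 127 ± 245 and 131 ± 126 CPM from stage 1 to stage 5. For ACTA2 and FBLN1 the SD between gilts exceeded the mean or came near it at most stages. Within gilts, ACTA2 was lower at stage 2 than at stage 1 in 3 of 4, at 0.0468 against 82.2 CPM in gilt 201, 0 against 243 in gilt 205 and 4.003 against 390 in gilt 801, and higher in gilt 803, at 214 against 81.4 CPM. In gilts 201, 205 and 801 the stage 1 sum rested almost wholly on 1 oocyte. Oocyte 1 of gilt 201 held 244 CPM against 0.764 and 0 in its other oocytes, and gilt 205 had 1 oocyte. Oocyte 3 of gilt 801, a granulosa-rich library, held 2241 CPM against 0 and 0.475 in its other oocytes.

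**Figure D2:**
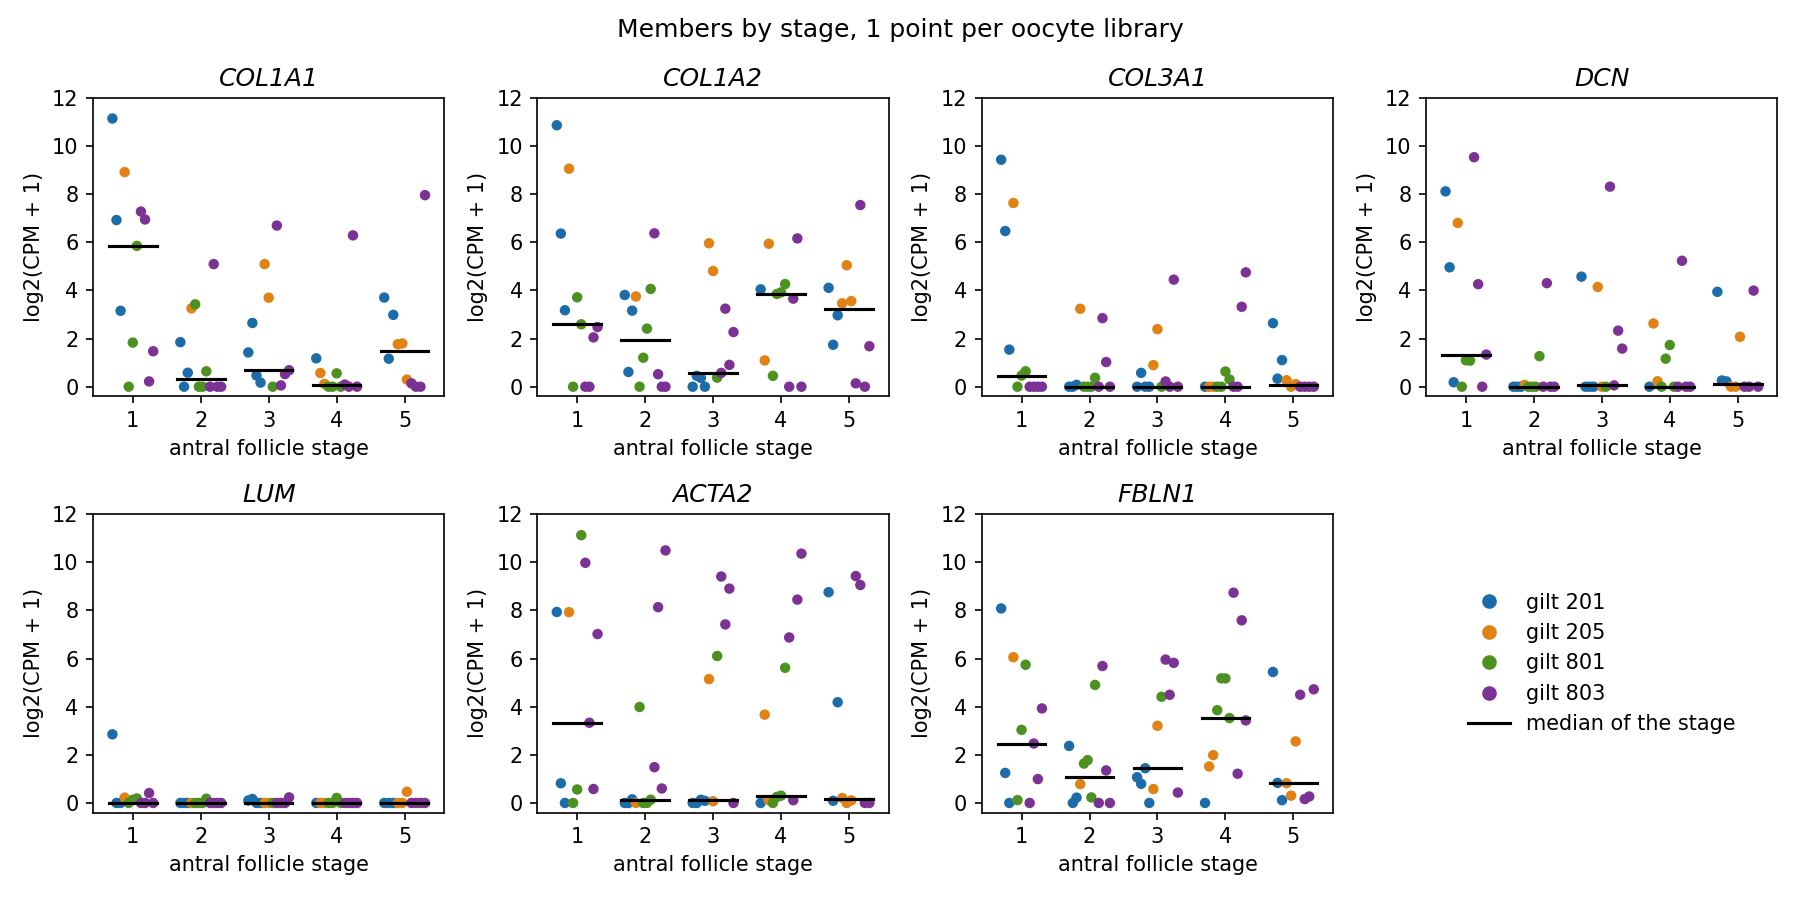
Level of each gene as log2(CPM + 1) against antral follicle stage, with 1 point per oocyte library coloured by gilt and a bar at the stage's median. The COL1A1 bar is highest at stage 1, at 56.8 CPM, while the 2 highest points for COL1A2 and for COL3A1 at stage 1 are 1 oocyte of gilt 201 and 1 of gilt 205.

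Without the 2 collagen-richest libraries, chosen after their values were seen, gilt 205 had no oocyte at stage 1. The stage 1 mean over the remaining gilt sums was then 33.0 ± 40.9 CPM for COL1A1 (n = 3 gilts), 20.9 ± 29.7 for COL1A2, 19.04 ± 32.8 for COL3A1 and 15.0 ± 12.9 for DCN. Those of COL1A1 and COL1A2 were below or level with the stage 5 means of 42.8 and 20.8 CPM. Those of COL3A1 and DCN were still the highest of the 5 stages, but by little or through 1 gilt. The COL3A1 mean rested on gilt 201, where oocyte 2 held 87.7 CPM, against 0.195 CPM in gilt 801 and 0 in gilt 803. Its stage 1 median over single oocytes was 0 CPM. The DCN mean stood beside 12.6 ± 16.3 CPM at stage 3. The COL1A1 median over single oocytes was also still highest at stage 1, at 7.91 CPM against 1.82 CPM at stage 5, where 1 oocyte held 248 CPM. The fitted change of COL1A1 from stage 1 to stage 5 was -3.58 on the log2 scale without these 2 libraries and -4.05 with them, and neither passed the adjusted threshold. Fitted changes rest on rescaled totals with the gilt in the model, so they need not follow the CPM means. FBLN1 at stage 1 became the lowest of the 5 stages at 5.96 ± 5.08 CPM. ACTA2 was then at 157 ± 205 CPM at stage 1.

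Stages were tested with edgeR's quasi-likelihood test on the gilt sums with the gilt in the model, and Benjamini-Hochberg adjustment over 15637 genes. LUM was too low to enter, which left 6 members. Between stage 5 and stage 1, 0 of 6 members passed an adjusted p of 0.05, and 0% of all genes did. With this test, 3 of 6 had an unadjusted p under 0.05, against 5.37% of all genes, and 5 of 6 had a fitted change below 0, against 57.3%. The median change of the 6 was -3.06 on the log2 scale, against -0.27 over all genes. COL3A1 had the largest fitted change at -6.40 ± 2.37 (SE), with an adjusted p of 0.904 and an unadjusted p of 0.0119. COL1A1 was at -4.05 ± 1.74 (adjusted p = 0.904, unadjusted p = 0.0281) and DCN at -3.73 ± 1.72 (adjusted p = 0.904, unadjusted p = 0.0391). COL1A2 was at -2.39 ± 1.59, FBLN1 at -1.71 ± 1.34 and ACTA2 at 0.79 ± 1.92, with unadjusted p of 0.146, 0.212 and 0.684.

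Several of these fitted changes depended on 1 gilt or on a few libraries. The change of COL1A2 was 0.63 without gilt 201, and that of ACTA2 was -5.22 without gilt 201. COL1A1 was at 1.16 without the granulosa-rich libraries, and without the 2 collagen-richest libraries FBLN1 was at 1.75 and ACTA2 at 4.49. The fits correct the total of each sum by a TMM factor, which ran from 0.270 to 3.59 with all libraries. Fitted changes can therefore differ from the CPM means in size and sign. With these factors ACTA2 averaged 160 CPM at stage 1 and 193 at stage 5, against 199 and 131 without them. COL3A1 and DCN kept a value below 0 under every alternative fit that was run, between -8.57 and -5.51 for COL3A1 and between -4.53 and -2.28 for DCN. COL3A1 passed the adjusted threshold in 1 alternative, the fit without a filter on low counts, at -6.35 (adjusted p = 0.00827), where 0.0998% of genes passed.

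**Figure D3:**
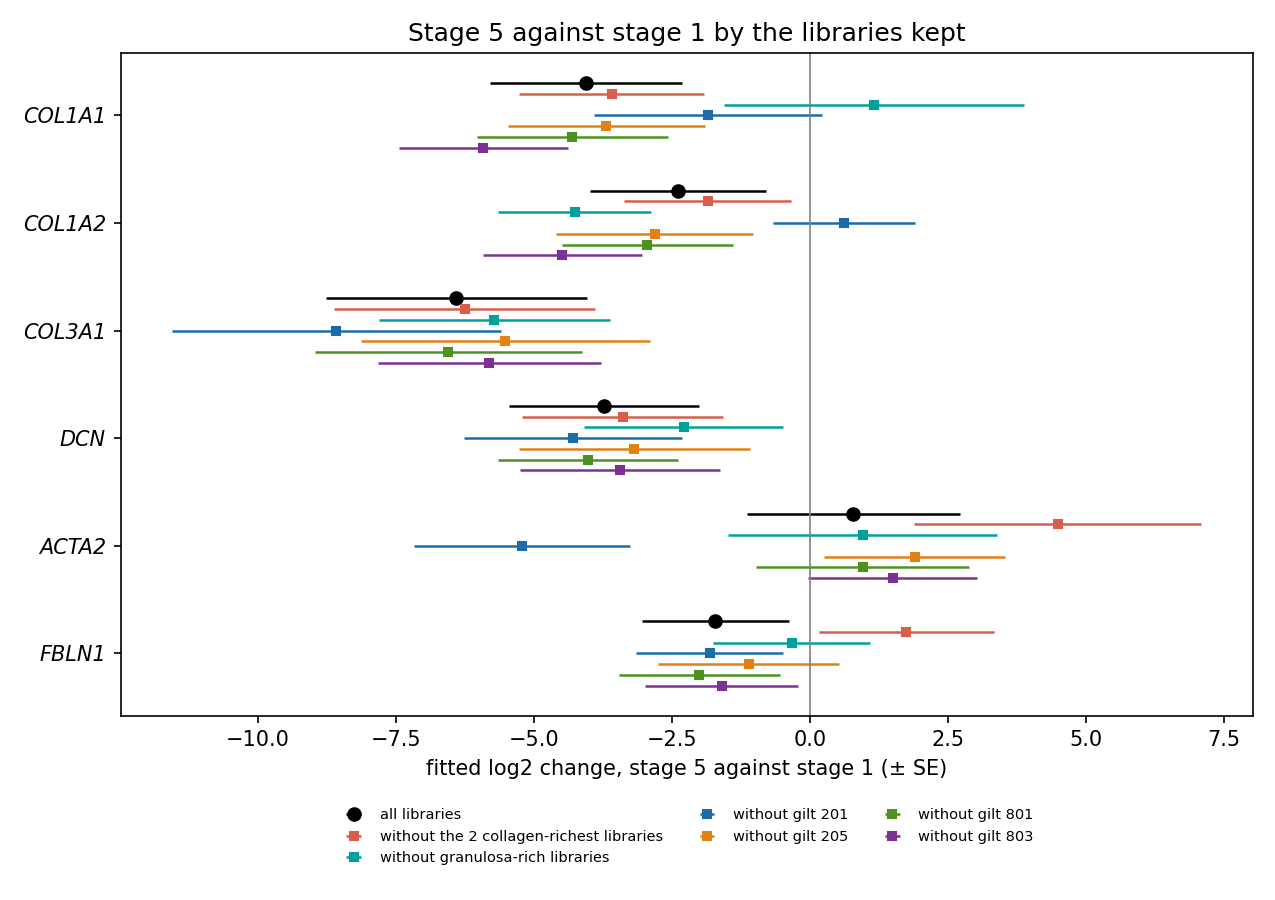
Fitted log2 change from stage 1 to stage 5 with its SE for the 6 tested genes, from all libraries (circles) and with named libraries or gilts left out (squares). COL3A1 and DCN lie below 0 in every fit shown, while ACTA2 moves from 0.79 with all libraries to -5.22 without gilt 201.

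The largest step between neighbouring stages was from stage 1 to stage 2. Again 0 of 6 members and 0% of genes passed the adjusted threshold in edgeR, and 4 of 6 had an unadjusted p under 0.05 against 6.61% of genes. The median change of the 6 was -3.61, against -0.50 over all genes. ACTA2 was at -6.46 ± 2.08 (adjusted p = 0.692), COL1A1 at -4.45 ± 1.51 (adjusted p = 0.692) and DCN at -3.93 ± 1.73 (adjusted p = 0.726). COL1A2 was at -3.28 ± 1.43, FBLN1 at -2.88 ± 1.41 and COL3A1 at -2.52 ± 1.97. DESeq2 and the unfiltered edgeR fit each passed COL1A1 and ACTA2 in this comparison, where they passed 2.65% and 0.482% of all genes. Without gilt 803, edgeR passed ACTA2 at -8.59 ± 1.84 (adjusted p = 0.0251). In each gilt kept in that fit, the stage 1 counts of ACTA2 came almost wholly from 1 oocyte.

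The later steps had no common direction. From stage 2 to stage 3, 0 of 6 passed the adjusted threshold (0% of genes), 3 of 6 were below 0 (45.1% of genes), and ACTA2 was at 3.52 ± 1.77. From stage 3 to stage 4, 0 of 6 passed (0% of genes), 3 of 6 were below 0 (53.7% of genes), and COL1A1 was at -2.41 ± 1.51. From stage 4 to stage 5, 0 of 6 passed (0% of genes), 3 of 6 were below 0 (45.5% of genes), and COL1A1 was at 3.23 ± 1.39 with an unadjusted p of 0.0286. The values of COL1A1 thus lay lowest at stage 4 on the fitted scale. None of the 6 was called at an unadjusted p of 0.05 in the steps from stage 2 to 3 or from 3 to 4, and COL1A1 was the 1 member so called from stage 4 to 5, against 4.66%, 4.13% and 2.98% of genes.

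Over the 5 stages as a number, 0 of 6 members passed an adjusted p of 0.05 in edgeR, against 0.0128% of genes, and 3 of 6 had an unadjusted p under 0.05, against 5.76%. The slope was -1.25 ± 0.456 log2 per stage for COL1A1 (adjusted p = 0.623), -1.38 ± 0.49 for COL3A1 (adjusted p = 0.580) and -0.80 ± 0.345 for DCN (adjusted p = 0.815). It was -0.42 ± 0.327 for COL1A2, -0.31 ± 0.284 for FBLN1 and -0.19 ± 0.468 for ACTA2, and 57.5% of all genes had a slope below 0. Over stages as a factor, 0 of 6 passed and 0% of genes did, and COL1A1 had the smallest p of the members (unadjusted 0.000975, adjusted 0.820), followed by ACTA2 (unadjusted 0.0349, adjusted 0.886). These 2 were the members with an unadjusted p under 0.05 in that test, against 5.37% of genes. Without gilt 803 both passed it, COL1A1 at an adjusted p of 0.00236 and ACTA2 at 0.0361, where 0.283% of genes passed.

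Carriage was also counted by gilt, as a description with no test. Gilt 205 carried COL1A2 in 9 of 9 libraries, gilt 201 in 9 of 14, gilt 801 in 8 of 12 and gilt 803 in 9 of 20. COL1A1 was carried in 10 of 14 libraries of gilt 201, 6 of 9 of gilt 205, 3 of 12 of gilt 801 and 7 of 20 of gilt 803. COL3A1 was carried in 5, 3, 0 and 4 libraries of the same gilts, and FBLN1 in 6, 5, 10 and 12. ACTA2 was carried in 12 of 20 libraries of gilt 803 and in 3 of 14, 3 of 9 and 4 of 12 of gilts 201, 205 and 801. Its stage sums averaged 259 ± 149 CPM in gilt 803 (SD, n = 5 stages), against 45.0 ± 65.2 in gilt 201, 52.9 ± 106 in gilt 205 and 117 ± 184 in gilt 801 (n = 4).

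In edgeR's test of any difference among the 4 gilts, 0 of 6 members passed the adjusted threshold, which 2.17% of genes passed. An unadjusted p under 0.05 was found for 4 of 6, against 12.6% of genes. COL1A2 had the smallest (unadjusted 0.00411, adjusted 0.105), then COL1A1 (0.0157, adjusted 0.229), COL3A1 (0.0228, adjusted 0.279) and ACTA2 (0.0317, adjusted 0.327). Without gilt 201, COL1A2 and ACTA2 passed at adjusted p = 0.0095 and 0.0365, where 3.35% of genes did. Gilt 803 also gave 11 of the 12 granulosa-rich libraries, and gilts 201 and 205 gave none. Within gilt 803, ACTA2 was carried by 10 of its 11 granulosa-rich libraries (median 480 CPM, 0.0826 to 1317 CPM) and by 2 of its 9 other libraries (median 0.518 CPM, 0 to 1443 CPM). The 1 granulosa-rich library of gilt 801 held the highest ACTA2 of all, 2241 CPM, against 0 to 68.0 CPM in that gilt's other 11. This difference within gilts was not tested.

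ACTA2 and FBLN1 moved with granulosa markers over the libraries, and the type I collagen chains showed little such order. ACTA2 was carried by 11 of 12 granulosa-rich libraries and by 11 of the other 43, with medians of 506 and 0.0984 CPM. FBLN1 was carried by 10 of 12 and 23 of 43, with medians of 36.1 and 1.55 CPM. COL1A2 was carried by 5 of 12 and 30 of 43, with medians of 0.682 and 6.84 CPM, and COL1A1 by 5 of 12 and 21 of 43, with medians of 0.270 and 0.609 CPM. Against the summed level of 18 granulosa and cumulus markers, Spearman's rho was 0.620 for ACTA2, 0.560 for FBLN1, 0.217 for DCN, 0.165 for COL3A1, 0.084 for COL1A1 and 0.027 for COL1A2. Against 14 oocyte genes it was -0.381 for ACTA2 and 0.402 for COL1A2. ACTA2 and FBLN1 also ranked lower where the mitochondrially encoded share was higher, at rho of -0.582 and -0.534. The part of granulosa RNA and of the mitochondrial share in these levels was not tested.

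**Figure D4:**
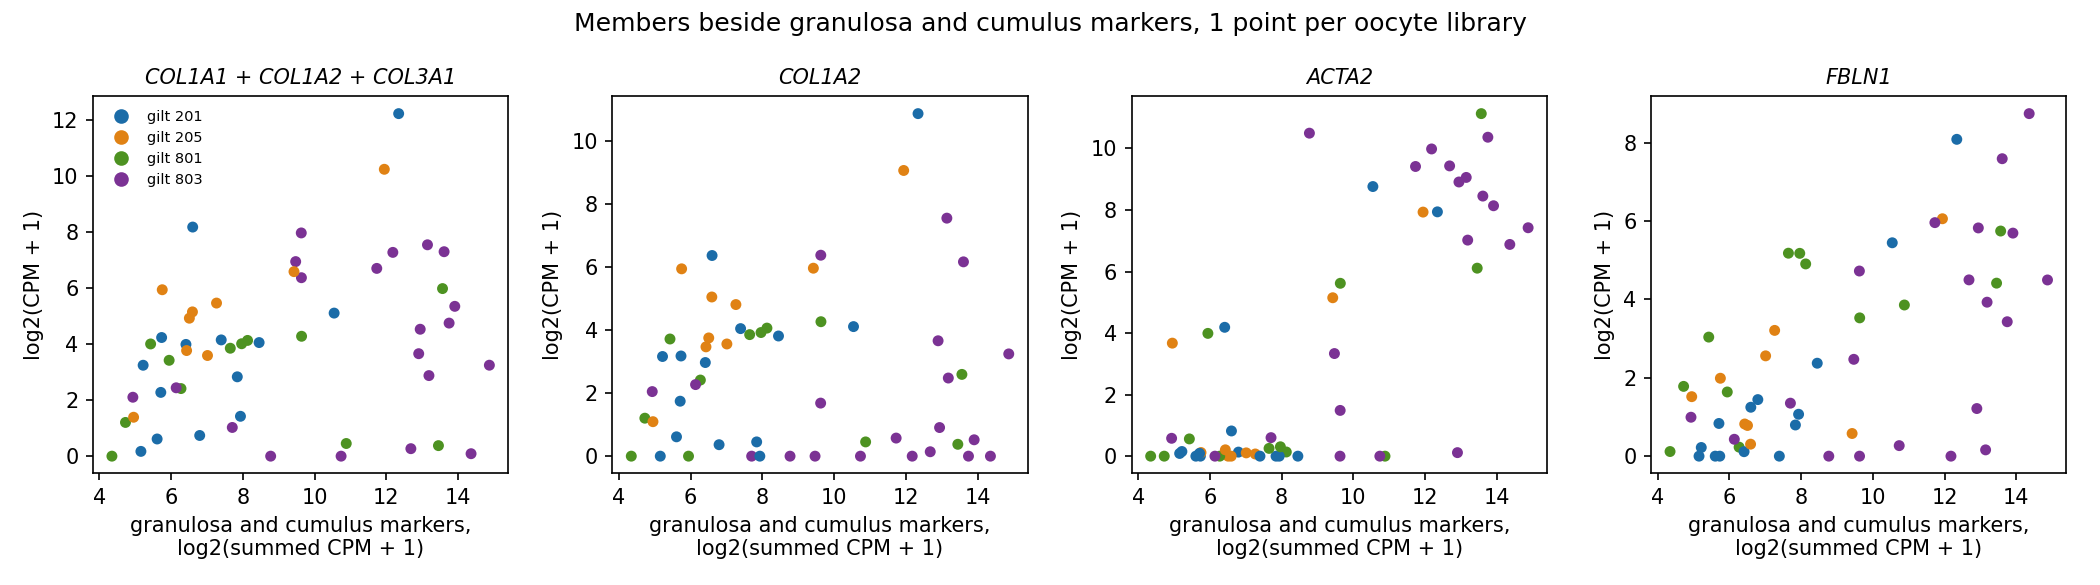
Level of the summed fibrillar collagen members, COL1A2, ACTA2 and FBLN1, as log2(CPM + 1), against the summed level of 18 granulosa and cumulus markers, with 1 point per library coloured by gilt. ACTA2 has most of its high points at the right (rho 0.620), and COL1A2 shows no such order (rho 0.027).

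The 2 collagen-richest libraries also lay above the median in the summed markers of other follicle wall cells, but were not the highest libraries in those sums. Single genes differed from the sums. STAR (789 CPM) and CYP17A1 were highest in oocyte 1 of gilt 205 at stage 1, and TPM2 (695 CPM) in oocyte 1 of gilt 201. The most abundant genes of the theca steroid and smooth muscle lists, CYP11A1 and RGS5, were highest in libraries of gilt 803. Oocyte 1 of gilt 201 at stage 1 held 7 theca steroid genes at 1294 CPM in sum, 14 smooth muscle and pericyte genes at 1436 CPM and granulosa markers at 5190.3 CPM, beside oocyte genes at 6852 CPM. Oocyte 1 of gilt 205 held the same lists at 1419, 415, 3934 and 37437 CPM. The medians over the 55 libraries were 28.7 CPM for theca steroid genes, 71.6 CPM for smooth muscle and pericyte genes, 249 CPM for granulosa markers and 15575 CPM for oocyte genes. Theca steroid genes were higher than in these 2 libraries in 9 and 7 libraries, smooth muscle and pericyte genes in 3 and 11, and granulosa markers in 12 and 14. In genes detected after thinning, the 2 libraries ranked 6 and 1 of 52, at 12024 and 14126 genes. CYP17A1, the androgen-making enzyme that defines steroid-making theca cells, was carried by 6 libraries only, at 59.3 and 75.1 CPM in these 2 libraries and at 1.97 to 8.74 CPM in the other 4. All 6 carried COL1A1, 5 carried COL1A2 and 4 carried COL3A1. INSL3, a theca cell hormone, was carried by 11 libraries, of which 8 carried COL1A1, 5 COL1A2 and 5 COL3A1. Its highest value, 597 CPM, was in oocyte 1 of gilt 803 at stage 1, with 0 counts of COL1A2 and COL3A1. STAR was carried by 21 libraries, of which 11 carried COL1A1, 17 COL1A2 and 6 COL3A1. Of the 15 libraries with at least 4 members, 12 carried CYP11A1, 8 STAR, 4 CYP17A1, 4 INSL3 and 9 the granulosa receptor gene FSHR. Over all 55 libraries, these genes were carried by 36, 21, 6, 11 and 25 in the same order. Theca steroid genes at stage 1 ranged from 0 to 3544 CPM over oocytes and at stage 5 from 1.89 to 4232 CPM. Their part in the collagen levels was not tested.

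The mean log2(CPM + 1) of the 7 members had a Spearman rho over the 55 libraries of 0.734 with theca steroid genes, 0.708 with matrix turnover genes, 0.699 with granulosa markers, 0.698 with stroma and fibroblast identity genes, 0.636 with smooth muscle and pericyte genes, 0.355 with blood and immune genes, 0.271 with endothelial genes and -0.188 with oocyte genes. The single theca steroid genes named here had lower values than their sum. NR5A1, which also ranks among the closest single genes below, came nearest at 0.698. The others were at 0.560 for CYP11A1, the most abundant of them, which granulosa cells can also make, 0.482 for INSL3, 0.291 for CYP17A1 and 0.234 for STAR. PECAM1, an endothelial adhesion gene, was carried by 19 libraries, and PTPRC, the leukocyte common antigen gene, by 8. MYH11, the smooth muscle myosin heavy chain gene, was carried by 35 libraries, 25 of which carried COL1A2 and 15 ACTA2. Its rho with the members' mean was 0.072. Carriage differed widely over the 14 smooth muscle and pericyte genes, from 2 to 38 libraries, so MYH11 does not stand for the list. The single genes closest to the members' mean were APOD, a lipid-binding apolipoprotein (rho 0.748), TIA1, an RNA-binding protein (0.732), BEX3 (0.723), REXO2 (0.705), RPL3, a ribosomal protein (0.703), NR5A1, a transcription factor of steroid-making cells (0.698), H2AZ1, a histone variant (0.694), STMN1, a microtubule regulator (0.692), CLU, a secreted chaperone (0.692), and SMAD4, a TGF-beta signal transducer (0.687). Over 11591 genes with at least 3 counts in 10 or more libraries the median rho was 0.228 and the 99th percentile 0.618.

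Other matrix genes had no called change between stage 5 and stage 1 either, with 0 passing in every list named in the next sentences. Of 12 other fibrillar and associated collagens, 9 were below 0 with a median log2 change of -2.81. The most abundant of them, COL14A1, a fibril-associated collagen, was carried by 51 libraries at a median of 32.0 CPM and had a fitted change of 1.29 ± 0.83, while COL11A1 was at 0.18 ± 1.30. Of 15 basement membrane genes, 12 were below 0 with a median of -2.32, among them HSPG2 (perlecan) at -2.45 ± 1.28 and SPARC at -2.56 ± 1.39. Of 17 genes of collagen modification and assembly, 11 were below 0 with a median of -0.19, among them the prolyl hydroxylase subunit gene P4HA1 at 0.54 ± 1.14 and the collagen chaperone gene SERPINH1 at -0.99 ± 1.17. Of 8 tested small leucine-rich proteoglycans other than DCN and LUM, 6 were below 0 with a median of -3.38, and PODN, the most abundant, was at 0.64 ± 0.80. Of 18 tested genes of the elastic fibre and fibulin-fibronectin network, 13 were below 0 with a median of -1.31, and VCAN (versican) was at -1.66 ± 1.04. Of 11 tested matrix turnover genes, 10 were below 0 with a median of -1.53, and the protease inhibitor gene TIMP1, the most abundant of them, was at -2.003 ± 1.11. The medians of these lists stand beside -3.06 for the 6 members and -0.27 for all genes, and their counts below 0 beside 57.3% of all genes.

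The other cell type lists gave the same counts of 0 passing at stage 5 against stage 1. Of 7 theca steroid genes, 6 were below 0 with a median of -1.87, and of 13 stroma and fibroblast identity genes 10 were, with a median of -2.60. Of 12 smooth muscle and pericyte genes, 10 were below 0 with a median of -2.30, and TPM2 was at -3.34 ± 1.54. Of 17 granulosa and cumulus genes, 14 were below 0 with a median of -0.70, and of 14 oocyte genes 10 were, with a median of -0.41. Of 7 endothelial genes, 6 were below 0 with a median of -3.47, and of 15 blood and immune genes 14 were, with a median of -4.89. Over all genes 57.3% were below 0, with a median of -0.27, and 0% passed.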

How the data were processed

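Raw counts were deposited by the authors as a table with a row per Ensembl ID and a column per oocyte. Per the submitters' processing notes the tools used were HISAT2 2.1.0, StringTie 1.2.2, featureCounts and Trim Galore 0.4.3, with no role stated. Build, annotation and strandedness were not given in the sources used here, and no positions or sequences are printed. Another deposited table, named for TPM, has columns of unequal sums. It was read as a length-scaled value of other unit, over 23498 genes, and only for ratios within a library. Its last row is incomplete and was not used.

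CPM was computed over each library's total (151104 to 38282850 counts), and correlations used log2(CPM + 1). Counts were summed per gilt and stage into 19 sums. These were tested two-sided with edgeR 4.0.16 under R 4.3.3: filterByExpr grouped on stage, TMM scaling, glmQLFit and glmQLFTest, with stage and gilt as terms. The common biological coefficient of variation was 1.24. An SE is the size of a change divided by the square root of its F. Its code was checked on simulated data with a smaller spread than these libraries have, which says nothing of its power here. Gilt is the block because the labels name the animal. Residuals from the stage means correlated within gilt 201 at r = -0.00128, within gilt 205 at 0.284, within gilt 801 at 0.177 and within gilt 803 at 0.258, as means over pairs of sums, and between gilts at -0.0564. DESeq2 1.42.0 and limma 3.58.1 (voom) were alternatives.

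The members, gene lists, tests and most alternatives were chosen with earlier results of these data known. The exclusion of the 2 collagen-richest libraries, and of granulosa-rich libraries from correlations, was added after seeing the data. Genes named were all members, the 10 genes most correlated with their mean, up to 3 of the most abundant genes of each list, and CYP17A1, FSHR, PECAM1, PTPRC, MYH11, ZP3 and GDF9. CYP19A1, also in that rule, was not analysed here.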

Additional observations from a re-analysis of the deposited data

Results flagged for a closer look

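Within groups of 4 to 10 values, the highest value of a member stood apart from the others (a gap to its neighbour beyond Dixon's 95% critical value) in 13 of the 35 groups tested. Chance flags about 1 in 20 groups of normally distributed values. These CPM are skewed with many zeros and the groups share oocytes and gilts, so that rate does not hold here. Among the gilt sums at stage 4, gilt 803 stood apart in COL1A1 (19.2 CPM, next 1.26), COL3A1 (9.68 CPM, next 0.299) and ACTA2 (495 CPM, next 7.94). At stage 2 the same gilt stood apart in DCN (12.8 CPM, next 0.590) and ACTA2 (214 CPM, next 4.00). Gilt 205 stood apart in COL1A2 at stage 3 (42.4 CPM, next 5.05).

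Among the single oocytes of stage 5, COL1A1 was 248 CPM in oocyte 4 of gilt 803 (next 12.05), COL1A2 was 186 CPM in oocyte 2 of gilt 803 (next 32.1), and COL3A1 was 5.24 CPM in oocyte 1 of gilt 201 (next 1.15). LUM stood apart in the stage 1 sum of gilt 201 (2.08 CPM, next 0.189). It was also the only value above 0 in the gilt sums of stage 2 (gilt 801, 0.0548 CPM) and stage 4 (gilt 801, 0.0747 CPM) and in the oocytes of stage 5 (oocyte 3 of gilt 205, 0.382 CPM). A single value above 0 is always picked out in this way, and those last 3 LUM values rest on a few counts each.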

How the results depend on the processing

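The number of members passing an adjusted p of 0.05 was 0 in all 8 edgeR tests. It became 1 for stage 5 against stage 1 without the low-count filter, and for stage 2 against stage 1 it became 2 without the filter, 2 with DESeq2 and 0 to 1 when 1 gilt was left out. It became 3 among the 5 stages without the filter (0 to 2 with a gilt left out) and 1 for the trend with DESeq2. Among the 4 gilts it became 4 without the filter, 1 with DESeq2, 1 with each oocyte as a library and 0 to 2 with a gilt left out. In the main fit 2.17% of all genes passed the test among gilts, 0.0128% the trend and 0% each other test of stage. Where the share of all genes passing an alternative fit is not given above, its count of members cannot be judged as particular to them. The fit with each oocyte as a library treats oocytes of 1 gilt and stage as replicates, which they are not. The unfiltered fit tests 23035 genes. The causes were not tested.

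Stage 5 against stage 1 reversed for COL1A1 without granulosa-rich libraries (1.16 on the log2 scale), for COL1A2 without gilt 201 (0.63, the other gilts down to -4.48 without gilt 803), for ACTA2 with limma-voom (-0.99) and without gilt 201 (-5.22, up to 1.90 without gilt 205, and 4.49 without the 2 collagen-richest libraries, not reversed), and for FBLN1 without the 2 collagen-richest libraries (1.75). The trend reversed for COL1A2 without gilt 201 (0.10, and -0.85 without gilt 803) and with each oocyte as a library (0.0198). That of ACTA2 reversed without the replicate block on gilt (0.0511), without gilt 205 (0.15, and -0.80 without gilt 201), without gilt 801 (0.07), with each oocyte as a library (0.16), without its highest library (0.16) and without the 2 collagen-richest libraries (0.68), and that of FBLN1 without those 2 (0.46). Leaving out the block changed no call.

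Libraries with at least 4 members numbered 35 with a threshold of 1 count, 8 with 10 CPM and 10 to 13 with a gilt left out. With 1 count or 10 CPM in place of the main threshold, carriage was 40 or 13 libraries for COL1A1, 44 or 22 for COL1A2, 25 or 5 for COL3A1, 28 or 12 for DCN, 11 or 0 for LUM, 40 or 22 for ACTA2 and 48 or 19 for FBLN1, and ACTA2 was carried by 10 without gilt 803. The rho with theca steroid genes was 0.658 with a pseudocount of 0.1, 0.646 to 0.803 with a gilt left out and 0.641 without granulosa-rich libraries. That with oocyte genes was 0.250 without gilt 803 (-0.317 without gilt 205) and 0.261 without granulosa-rich libraries. With 19 sums and a biological coefficient of variation of 1.24, large fitted changes kept wide errors, and the shallowest library could not show members under 19.9 CPM.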
